A study of Mus musculus with 4 samples.

Results

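Id1, Id2, Id3, Eng, Acvrl1, Bmpr2, Smad6 and Smad7, genes of bone morphogenetic protein (BMP) signalling, were followed in single-cell RNA sequencing of mouse brain. They were chosen by symbol, 8 of the 55487 genes in the deposited tables, and Id1 had been seen to be lower in the library labelled young EC-K4KO, so the comparison of the young genotypes is given as a description, with no test. The study held 4 libraries, 1 for each age (young or old) of 2 genotypes (WT Cre or EC-K4KO), and asked how endothelial loss of the transcription factor Klf4 relates to aging of brain endothelial cells (ECs). WT Cre mice are littermate controls that carry Cdh5-Cre, a Cre recombinase driven by the VE-cadherin promoter and so active in ECs throughout the body. EC-K4KO mice carry the same Cre, which tamoxifen induces, together with floxed Klf4. The labels give age only as young or old, and the study's text defines both in months for its cohorts in general, not for these libraries. The number of mice behind a library is not given in the sources used here, and the cells had been enriched for ECs before loading.

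BMP ligands bind type II receptors such as Bmpr2 and type I receptors such as Acvrl1 (ALK1) on the cell surface, and in ECs endoglin (Eng) acts as their co-receptor. The receptors phosphorylate Smad1, Smad5 and Smad9, which enter the nucleus with Smad4 and raise the Id genes, whose proteins hold back basic helix-loop-helix transcription factors, and also Smad6 and Smad7, which inhibit the same pathway. Loss of Eng or Acvrl1 in people causes hereditary hemorrhagic telangiectasia, a disorder of vessel malformations, and loss of BMPR2 causes heritable pulmonary arterial hypertension.

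Counts of unique molecular identifiers (UMIs), each an RNA molecule captured once, were summed over the ECs of each library and scaled to UMIs per 1e6 UMIs (CPM). Of 26422 barcodes, 21714 passed the filters and 10359 were classed as ECs from marker genes, 2800 and 2182 in the young and old WT Cre libraries and 3455 and 1922 in the young and old EC-K4KO libraries. EC sums ranged from 10869701 to 45644081 UMIs and median depth from 3778.5 to 10025 UMIs per cell. All 10 EC markers exceeded 10 CPM in the ECs of every library. Pairs of libraries shared 7 to 42 cell barcodes. Klf4, the targeted gene, went against the labels: it was at 3268 CPM (young) and 3306 CPM (old) in ECs of the EC-K4KO libraries, above 1686 CPM and 2094 CPM in WT Cre of the same ages. The EC-K4KO libraries are therefore called the libraries labelled EC-K4KO, and no direction below is read as an effect of Klf4 loss. A count over the whole transcript does not report whether a floxed exon was removed. Each group is 1 library, so intervals are 95% intervals for counting error only, and fewer cells of a kind or less RNA per cell cannot be told apart from a summed level.

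Sequence around a RefSeq transcription start was read for the members from RefSeq promoter windows (GRCm38.p6), which were matched for 5 of the 8 genes. In the GENCODE annotation used here, 3 of the 5 windows (Id2, Id3 and Bmpr2) lay inside the gene, downstream of its annotated 5′ end. Windows of 300 bases were searched on both strands for GGCGCC, a GC-rich element bound by BMP-activated Smads, for CACCC, the box that Krüppel-like factors bind, and for CAGAC, a short Smad-binding element. Of 32851 such windows genome-wide, 11.9% held the GC-rich element, 57.5% held the Krüppel-like box and 49.6% held the short Smad element. The GC-rich element was found 1 time each in the windows of Id2 and Bmpr2. The Krüppel-like box was found 4 times in Eng, 2 times in Id2, 2 times in Id3 and 1 time in Smad6. The short Smad element was found 2 times each in Eng and Id3. Stretches outside annotated exons of the same gene are shown for Id2 and Smad6, whose levels rose with age as described below, and for Eng, which had the most matches to the Krüppel-like box, each 5′ to 3′ on the strand of the gene, with matches to that box and to the GC-rich element in capitals.
Id2, chr12:25096254-25096342, minus strand: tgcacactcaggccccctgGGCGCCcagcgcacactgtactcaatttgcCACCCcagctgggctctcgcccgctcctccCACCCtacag
Smad6, chr9:64022060-64022309, minus strand: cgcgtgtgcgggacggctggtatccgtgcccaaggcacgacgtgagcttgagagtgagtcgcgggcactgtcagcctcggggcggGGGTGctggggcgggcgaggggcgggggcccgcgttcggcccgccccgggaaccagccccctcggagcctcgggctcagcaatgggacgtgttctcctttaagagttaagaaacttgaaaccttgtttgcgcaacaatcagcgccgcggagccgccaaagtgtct
Eng, chr2:32646345-32646594, plus strand: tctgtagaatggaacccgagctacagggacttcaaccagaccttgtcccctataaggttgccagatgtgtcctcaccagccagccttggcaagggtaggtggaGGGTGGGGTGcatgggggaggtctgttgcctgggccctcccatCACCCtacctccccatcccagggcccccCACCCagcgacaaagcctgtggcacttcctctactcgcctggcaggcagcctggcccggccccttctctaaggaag
The Id2 stretch lies 798 to 886 bases downstream of the annotated 5′ end of Id2, between exons, and the Eng and Smad6 stretches end next to theirs. The Id2 stretch carries all 3 capitalised matches of its window. The others carry the Krüppel-like box on 1 or both strands and no GC-rich element. These are matches of letters, and binding was not measured in these libraries.

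The receptors were the steadiest members. Eng was at 692 CPM in WT Cre and 756 CPM in EC-K4KO-labelled ECs of young mice, and at 631 CPM and 793 CPM in those of old mice. Both libraries labelled EC-K4KO therefore exceeded their WT Cre library of the same age, 1.09-fold in the young and 1.26-fold in the old. Further sets of 4 values keep that order, with WT Cre before EC-K4KO and young before old. Acvrl1 was at 497, 431, 491 and 465 CPM. Bmpr2, the type II receptor, was at 515, 487, 487 and 506 CPM. Both varied by less than 1.5-fold across the 4 libraries.

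Among the Id genes, Id1 separated young WT Cre from the rest. Id1 was at 1378 CPM (95% interval 1364 to 1393) in young WT Cre, and at 831, 790 and 693 CPM in the remaining libraries. Id3, which encodes a close relative, was at 1466, 1187, 923 and 963 CPM, again highest in young WT Cre. Id2 was lower than both in count and moved the other way with age, at 141 and 131 CPM in the young libraries and 171 and 165 CPM in the old.

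The inhibitory Smads were higher in both old libraries than in both young ones. Smad6, which acts mainly on BMP receptor signalling, was at 58.2 and 51.1 CPM in the young libraries and 88.2 and 88.7 CPM in the old. Smad7, which acts on both BMP and TGF-beta receptor signalling, was at 276 and 211 CPM in the young and 434 and 468 CPM in the old libraries. The young and old values did not overlap for 5 members. Id2, Smad6 and Smad7 were higher in both old libraries, as were 15.2% of 8443 genes with at least 10 CPM. Id1 and Id3 were lower in both, as were 57.5% of those genes. With TMM scaling or DESeq2 size factors the values of Id1 overlapped between the ages, Id3 stayed lower in both old libraries, and Acvrl1 and Bmpr2 joined those that were higher. The shares of all genes moved as well. With TMM, 24.8% were higher and 40.1% lower in both old libraries, and with DESeq2 size factors 28.6% and 34.5%.

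**Figure D1:**
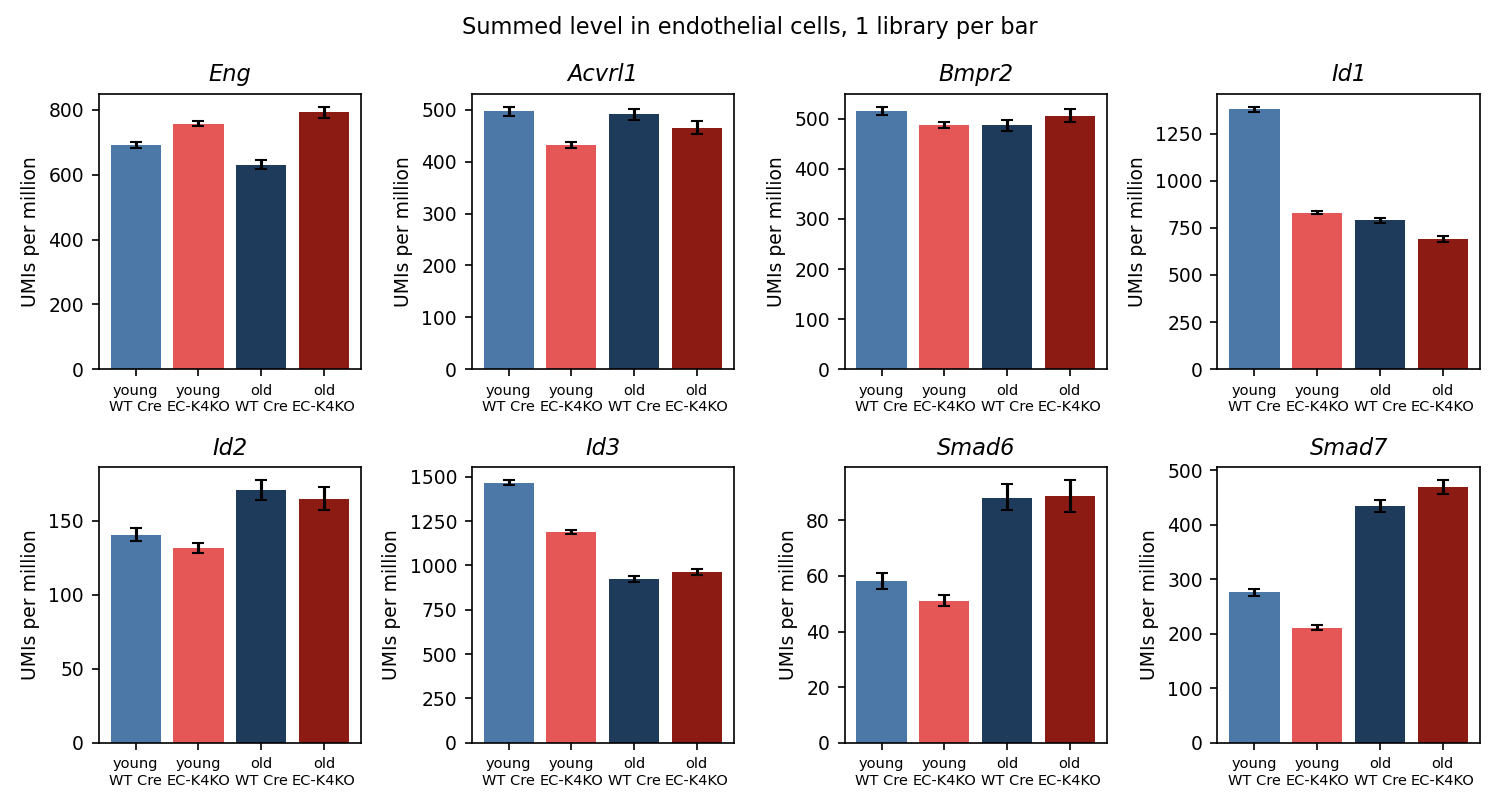
Summed level of the 8 genes in ECs, in CPM on an axis from 0, with 1 bar per library and 95% counting intervals as error bars. Id1 is highest in young WT Cre at 1378 CPM, and Smad6 and Smad7 are higher in both old libraries than in both young ones.

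Among the 8 genes, Id1 differed most between the young libraries. The log2 ratio of the library labelled young EC-K4KO over young WT Cre was −0.73 for Id1 (counting interval −0.75 to −0.71), a 1.66-fold lower level, which is the value behind the choice of the genes. Smad7 followed at −0.39 and Id3 at −0.30, while Acvrl1 was at −0.21, Smad6 at −0.19, Id2 at −0.10, Bmpr2 at −0.08 and Eng at 0.13. Id1 was the 1 member past a log2 ratio of 0.5, among 8443 genes with at least 10 CPM of which 1.73% were lower and 1.95% higher by that much. The median of the members was −0.20 and that of the 8443 genes −0.04. The member nearest to the threshold on its outer side was Id1 and on its inner side Smad7, at the values given. Nothing is read from these counts, since the members were chosen on this comparison. Other signals moved with the young pair. Of 14 immediate early and dissociation genes, 5 were higher past 0.5 and 0 lower (median 0.38), among them Fos at 0.86 and Zfp36 at 0.66. The summed RNA of 8 smooth muscle markers in the EC sums was 96.7 CPM (WT Cre) and 193 CPM (labelled EC-K4KO), with 5 of 8 over 10 CPM in both and none at 0. That of 8 pericyte markers was 96.2 and 178 CPM (2 of 8 over 10 CPM in both, none at 0) and that of 5 erythroid markers 312 and 596 CPM (4 of 5 in both, none at 0). Neutrophil markers were at 7.28 and 26.2 CPM (0 and 1 of 9 over 10 CPM), and oligodendrocyte markers went the other way, at 73.7 and 25.2 CPM (2 of 7 in both). Their part in the Id1 ratio was not tested.

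In the old libraries no member was past that threshold. Id1 was at −0.19 (counting interval −0.23 to −0.15), Eng at 0.33 (0.29 to 0.37) and Smad7 at 0.11 (0.06 to 0.16). The other 5 members lay between −0.08 and 0.06. Of all 8443 genes, 1.88% were lower and 1.98% higher by the same threshold. The median of the members was 0.03 and that of all genes −0.02.

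With age in WT Cre, Id1 and Id3 were lower and Smad6 and Smad7 higher past the threshold. Old over young WT Cre gave −0.80 for Id1 (1.75-fold lower) and −0.67 for Id3 (1.59-fold lower), against 0.60 for Smad6 (1.52-fold higher) and 0.65 for Smad7 (1.57-fold higher). Id2 was at 0.28, and the receptors lay between −0.13 for Eng and −0.02 for Acvrl1. All genes were themselves shifted, with a median of −0.18, and 11.1% were lower and 5.24% higher past the threshold. With age in the libraries labelled EC-K4KO, Smad7 was at 1.15 (2.22-fold higher) and Smad6 at 0.80 (1.74-fold higher), where 5.38% of genes were higher and 9.82% lower past the threshold. Id1 was at −0.26 and Id3 at −0.30, with a median of all genes of −0.15. The young WT Cre library enters both its genotype and its age comparison, so the low Id1 ratios of the young pair and of WT Cre with age share 1 measurement. Scaling by trimmed means (TMM) instead of totals raised every ratio with age by 0.14 in WT Cre and by 0.09 in the libraries labelled EC-K4KO. Under it Eng, Acvrl1 and Bmpr2 were above 0 with age in WT Cre, while the signs of the Id and inhibitory Smad genes with age did not change. The split of all genes past the threshold turned with scaling. With TMM it was 7.33% higher and 4.68% lower in WT Cre and 6.80% higher and 5.77% lower under the EC-K4KO label. With DESeq2 size factors it was 8.05% higher and 3.83% lower in WT Cre and 7.38% higher and 4.71% lower under the EC-K4KO label, and in the young pair it was 2.49% higher and 1.28% lower.

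**Figure D2:**
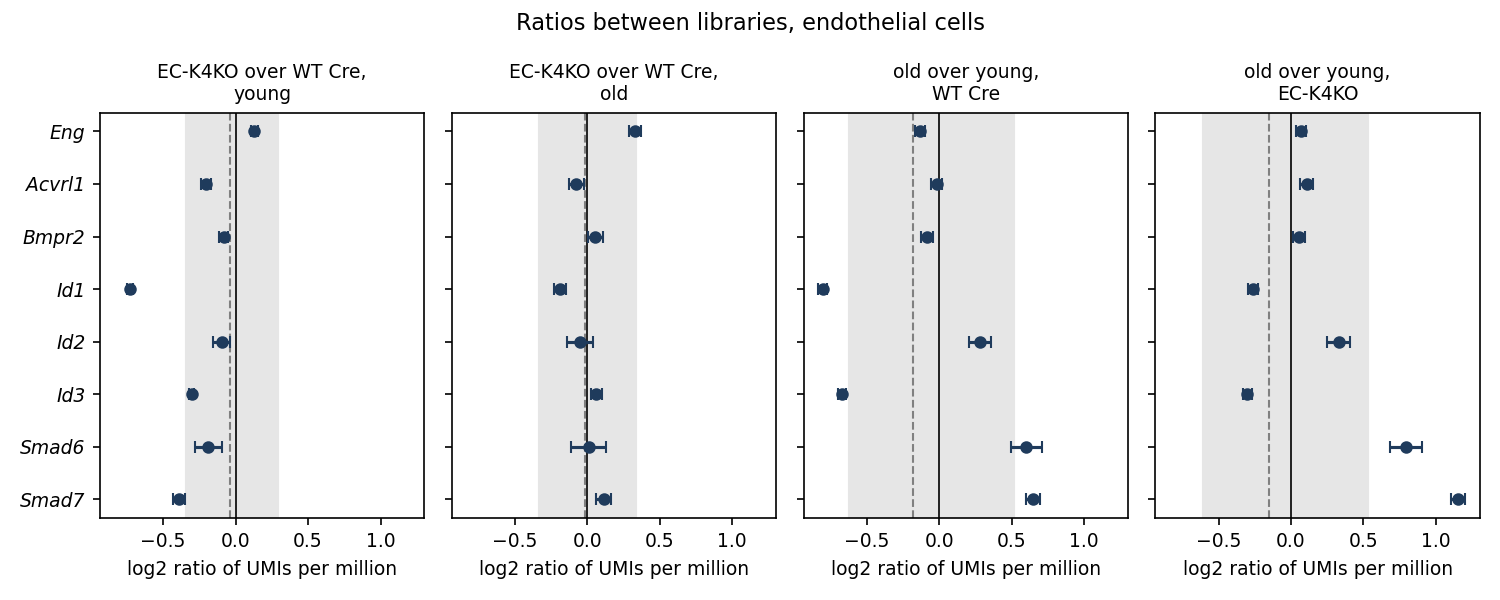
Log2 ratios of the summed EC level between libraries in 4 comparisons, with 95% counting intervals, the median of 8443 genes as a dashed line and their 5th to 95th percentiles in grey. Smad6 and Smad7 lie above the grey range in both age comparisons, and Id1 lies below it in the young genotype comparison and with age in WT Cre, as do Smad7 in the former and Id3 in the latter.

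The effect of age could be tested over both genotype labels, with 2 old against 2 young libraries and 1 residual degree of freedom. In edgeR's quasi-likelihood test with age and genotype label as terms, Smad7 was higher in old ECs by 1.05 on the log2 scale (adjusted p = 0.000212) and Smad6 by 0.85 (adjusted p = 8.11e-05). Id2 was higher by 0.45 (adjusted p = 0.00253). Id1 fell by 0.39 (adjusted p = 0.0485) and Id3 fell by 0.34 (adjusted p = 0.0472), both close to the threshold of 0.05. The 2 young Id1 values behind the choice of the genes also form the young side of this test. The p-value of Id1 is therefore not free of that choice. Eng (0.11, adjusted p = 0.393), Acvrl1 (0.19, adjusted p = 0.127) and Bmpr2 (0.13, adjusted p = 0.284) did not pass it. Of 15007 genes tested, 11.9% were called higher and 7.98% lower with age, so the 3 higher and 2 lower members stand against a broad change. The calls of Smad7, Smad6 and Id2 were kept in all 6 alternatives, with adjusted p of at most 0.00617 (edgeR and DESeq2). The call of Id1 was lost in 3 of them and that of Id3 in 4, with adjusted p of 0.663 and 0.100 in DESeq2. Each group holds 1 library, so these p-values do not measure a spread among libraries of the same age and label. The spread they rest on is the departure from the additive fit, drawn toward that of other genes (prior degrees of freedom 8.62). A library may be a single mouse or a pool. Immediate early and dissociation genes moved with age as well, with 8 of 14 called higher and none lower. Neutrophil marker RNA in the EC sums overlapped between the ages. It was at 7.28 CPM in young WT Cre, 26.2 CPM in young EC-K4KO-labelled and 20.7 CPM in old WT Cre ECs. It stood at 233 CPM in the old library labelled EC-K4KO, where 3 of 9 markers exceeded 10 CPM. Ly6g, a defining neutrophil marker, was at 0 in the other 3 libraries and at 0.0920 CPM, 1 UMI, in that library. Their part in the result was not tested.

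The shares of ECs with a UMI ranked the libraries as the sums did for Id1, Id3, Smad7, Eng and Acvrl1, and not for Id2, Smad6 or Bmpr2. After every EC was thinned to 1000 UMIs, Id1 was found in 69.2% of ECs in young WT Cre (exact binomial interval 67.4% to 70.9%) and in 49.6%, 45.1% and 44.2% in the remaining libraries. In microglia, which are not known for Id1, the thinned share was 0.27% to 2.70%. Without thinning the EC shares were 96.4%, 92.9%, 79.9% and 75.5%. Id3 was found in 71.4%, 64.2%, 52.4% and 57.5% of thinned ECs and Smad7 in 23.2%, 18.1%, 33.2% and 34.0%. Smad6 was found in 5.29%, 4.72%, 7.52% and 6.61%. In capillary ECs, Id1 and Id3 occurred together in 52.9%, 36.8%, 31.6% and 33.3% of cells, beside 51.2%, 35.2%, 25.3% and 27.5% given by the product of their single shares. Capillary ECs with 3 or more Id1 UMIs made up 19.6% of those of young WT Cre, beside 8.69% to 11.1% elsewhere.

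ECs were next placed along the vessel tree by markers of arterial, capillary and venous identity. Arterial ECs numbered 212 to 236 per library. Capillary ECs numbered 2101, 2392, 1381 and 1122 and venous ECs 45, 117, 103 and 139, so the make-up of the EC sums was not the same at both ages, and values over all ECs do not hold it fixed. The age ratio of Smad6 in WT Cre, for instance, was 0.60 over all ECs and 0.31 in capillary ECs. Of the 8295 placed cells, 839 lay near a cut between segments. Smad6 was highest in arterial ECs in all 4 libraries. It was at 143, 136, 235 and 187 CPM in arterial ECs, against 46.9, 42.0, 58.0 and 73.3 CPM in capillary and 55.8, 41.0, 51.1 and 33.4 CPM in venous ECs. Arterial ECs were thus 2.55- to 4.05-fold higher than capillary ECs in all 4 libraries, and 5.97% of genes were higher past the log2 threshold of 0.5 in all 4.

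Smad7 and Eng were low in veins. Smad7 was at 150, 81.3, 200 and 179 CPM in venous ECs and at 304, 222, 464 and 519 CPM in capillary ECs, 2.02- to 2.89-fold lower in veins. Eng was at 362, 302, 423 and 430 CPM in venous ECs and at 731, 821, 662 and 893 CPM in capillary ECs, 1.56- to 2.72-fold lower. A venous level lower past the threshold in all 4 libraries was found for 6.24% of genes. Acvrl1 stepped down along the tree in every library, from 533 to 601 CPM in arterial, 434 to 491 CPM in capillary and 315 to 395 CPM in venous ECs. Id1, Id2, Eng, Acvrl1 and Smad7, 5 of the 8 members, had their lowest level in venous ECs in all 4 libraries, which 19.4% of genes did. Bmpr2 was lower in arterial than in capillary ECs in all 4 libraries (log2 ratios −0.34 to −0.06), with no fixed place for venous ECs. Id3 had no order common to all 4 libraries. It was highest in venous ECs in both young libraries (1959 and 1366 CPM) and lowest there in both old libraries (903 and 815 CPM).

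Id1 was also followed by segment. In capillary ECs Id1 was at 1445, 889, 774 and 801 CPM, with log2 ratios between the genotype labels of −0.70 in the young, the pair on which the genes were chosen, and 0.05 in the old (interval −0.01 to 0.11). In arterial ECs it was at 1299, 804, 1042 and 666 CPM, with ratios between the labels of −0.69 in the young and −0.65 in the old. In venous ECs it was at 668, 287, 598 and 485 CPM, with ratios of −1.22 and −0.30. With age, Id1 was at −0.90, −0.32 and −0.16 in capillary, arterial and venous ECs of WT Cre. Under the EC-K4KO label it was at −0.15 and −0.27 in capillary and arterial ECs, and at 0.76 (interval 0.62 to 0.90) in venous ECs, opposite in sign to the age term over all ECs. The differences between segments were not tested, and the venous values rest on as few as 45 cells. Smad7 was higher in old than in young libraries in every segment and under both labels, with log2 ratios from 0.41 in venous WT Cre to 1.22 in capillary ECs labelled EC-K4KO. Id2 was higher with age in capillary ECs, at 139 and 132 CPM in the young and 191 and 210.5 CPM in the old libraries. It was not in the other segments, with age ratios on the log2 scale of −0.03 in WT Cre and −0.43 (interval −0.64 to −0.23) under the EC-K4KO label in arterial ECs, and of −0.11 and −0.19 in venous ECs, whose intervals held 0. Smad6 was higher with age in arterial ECs (0.72 and 0.46) and capillary ECs (0.31 and 0.81), and stood at −0.13 and −0.29 in venous ECs, again with intervals that held 0. In capillary ECs alone the edgeR age term was 1.07 for Smad7 (adjusted p = 0.000711), 0.70 for Smad6 (adjusted p = 0.0051) and 0.71 for Id2 (adjusted p = 0.000804), where 7.92% of 13507 genes were called higher and 3.74% lower.

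**Figure D3:**
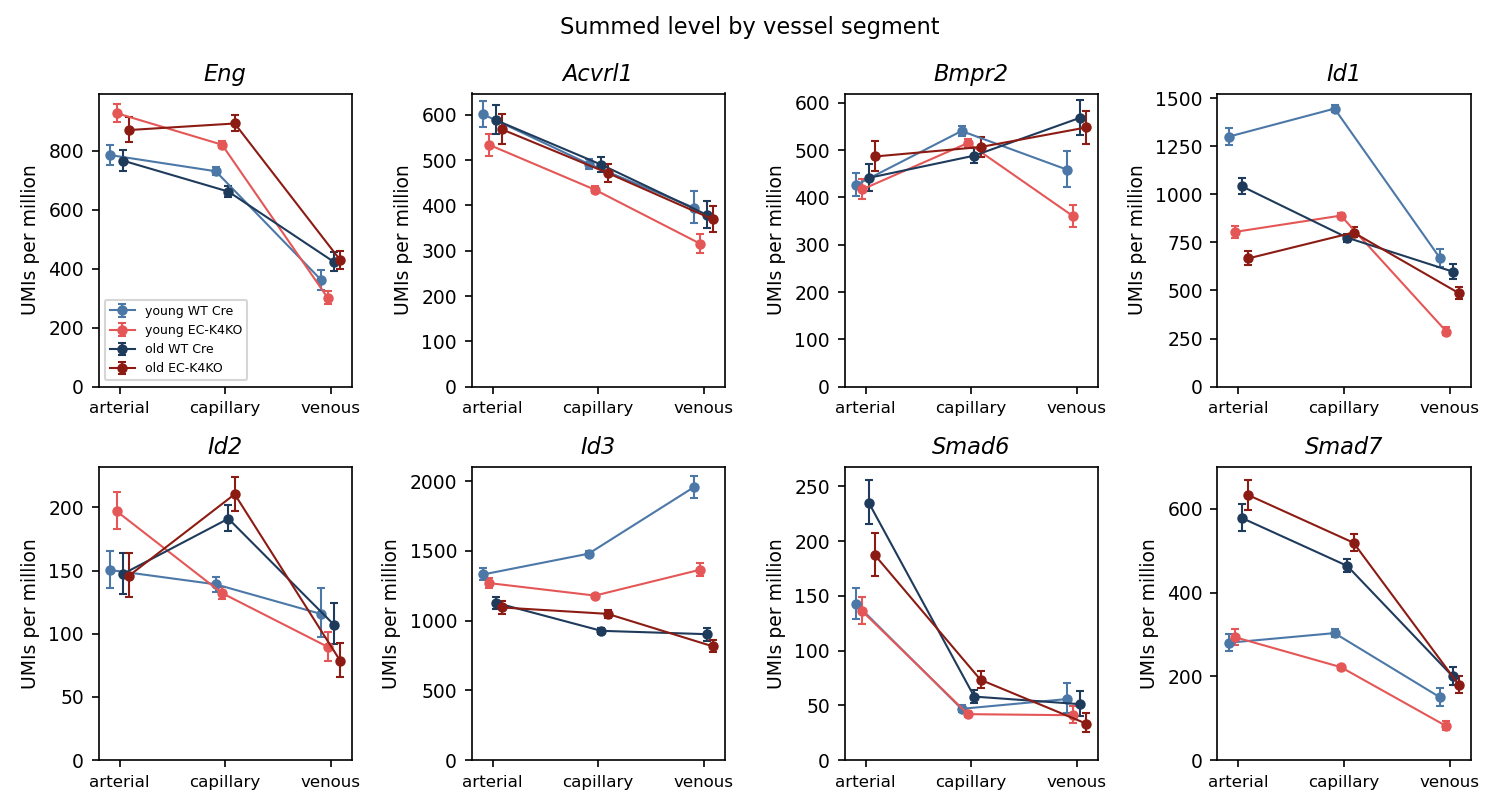
Summed level of each gene in arterial, capillary and venous ECs, in CPM on an axis from 0, with 1 line per library and 95% counting intervals. Smad6 falls from arterial to capillary ECs in all 4 libraries, and Smad7, Eng, Acvrl1, Id1 and Id2 are lowest in venous ECs in all 4.

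Across cell classes, 5 of the 8 genes were highest in ECs. In the 5 classes with at least 50 cells in every library (ECs, pericytes, smooth muscle, astrocytes and microglia), Acvrl1 was 15.6- to 21.6-fold over the next class, Id1 5.29- to 9.11-fold, Smad6 2.93- to 5.80-fold, Eng 3.08- to 3.83-fold and Bmpr2 2.61- to 4.52-fold, in all 4 libraries. Of 9773 genes compared, 11.2% were highest in ECs in all 4 libraries and 4.06% by at least 2-fold. Smad7 was highest in ECs in 3 of 4 libraries and was carried as well by microglia (225 to 271 CPM). Oligodendrocytes, with fewer than 50 cells in 1 library, held 378 to 453 CPM of Smad7.

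Id2 and Id3 had other leading classes. Id2 was highest in astrocytes, at 907 to 1293 CPM, beside 131 to 171 CPM in ECs. Id3 was highest in smooth muscle, at 2017, 2481, 2837 and 3135 CPM. Microglia held 199 and 220 CPM of Id2 in the young and 544 and 561 CPM in the old libraries. In pericytes Id3 was at 245 and 456 CPM in the young and 1137 and 622 CPM in the old libraries.

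The same age model was fitted in those other classes, a choice made after these values had been seen. As in ECs, the p-values rest on 1 residual degree of freedom and 1 library per group. A very small value therefore does not measure a spread among mice. In microglia Id2 was higher with age by 1.73 on the log2 scale (adjusted p = 7.79e-52) and Id3 lower, with a value of −1.27 (adjusted p = 1.04e-08), at 28.4 and 33.3 CPM in the young and at most 10.3 CPM in the old libraries. The Id3 level of microglia was a small share of the EC level, and RNA from other cells in the droplets was not separated from it. Of 11327 genes tested in microglia, 16.9% were called higher and 12.3% lower. In pericytes Id3 was higher by 1.45 (adjusted p = 0.000388) and Smad7 by 1.19 (adjusted p = 0.0238), the latter on 17 to 37 UMIs per library, where 1.76% of 7861 genes were called higher and 0.445% lower. In smooth muscle 0 of 8 members were called in edgeR (3 at an unadjusted p under 0.05, namely Id1, Id3 and Bmpr2), with Id3 at 0.45 (adjusted p = 0.0614), where 1.77% of genes were called higher and 0.986% lower. In astrocytes 0 of 5 tested members were called (1 at an unadjusted p under 0.05, Bmpr2), where 0.741% of genes were called higher and 0.188% lower.

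**Figure D4:**
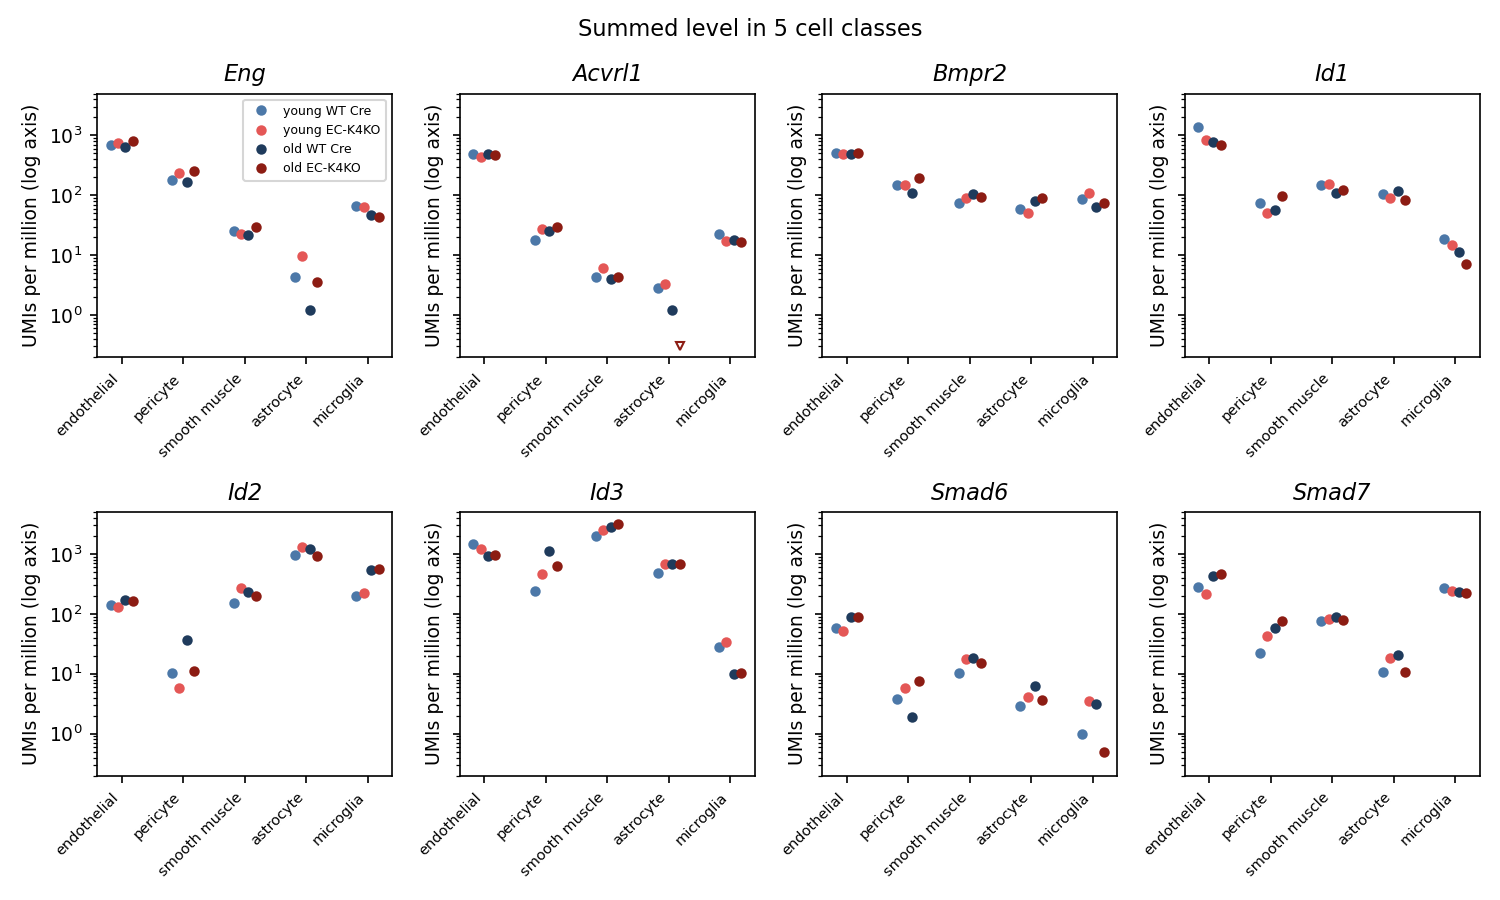
Summed level of each gene in 5 cell classes, in CPM on a log axis, with 1 point per library and an open triangle where a library had 0 UMIs. Acvrl1, Id1, Smad6, Eng and Bmpr2 are highest in endothelial cells in all 4 libraries, Id2 in astrocytes and Id3 in smooth muscle.

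The wider pathway was taken from lists of ligands, receptors, Smads, inhibitors and target genes. Among BMP target genes, 11 of 15 tested in ECs were called higher with age and 2 lower (Id1 and Id3), beside 11.9% and 7.98% of all genes. The list includes Id1, Id2, Id3, Smad6 and Smad7. Those higher included Hey1, a Notch and BMP effector (0.92, adjusted p = 8.98e-05), Atoh8, a helix-loop-helix factor (0.88, adjusted p = 0.00184), Id4 (0.92, adjusted p = 0.00113) and Gja4, the arterial connexin 37 (0.98, adjusted p = 0.00317). In capillary ECs 8 of 14 were called higher and 0 lower in edgeR (11 of 14 at an unadjusted p under 0.05 in either direction), beside 7.92% and 3.74% of all genes in the capillary fit, and Gja4 was at −0.21 (adjusted p = 0.645). Intracellular inhibitors showed 5 of 9 higher and 0 lower, both in all ECs and in capillary ECs, beside the same shares of all genes. Smad6 and Smad7 are on this list too and count among the higher genes of both lists. Pmepa1, a further inhibitor, was not called with age (−0.34, adjusted p = 0.112) and was at 169 and 122 CPM in the young and 151 and 68.3 CPM in the old libraries.

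The remaining lists cover the steps before and beside the target genes. Of 6 signal-carrying Smads, 0 were called in either direction in edgeR (2 at an unadjusted p under 0.05), and 1 in capillary ECs, Smad5, at −0.35 (adjusted p = 0.0477). For the following counts the shares of all genes in that fit were 11.9% higher and 7.98% lower. Receptors and co-receptors gave 2 higher and 2 lower of 14, counts near those shares, and ligands 4 higher and 1 lower of 9. Tgfb2, the ligand with the most UMIs in ECs, was at 236 and 214 CPM in the young and 169 and 139 CPM in the old libraries (−0.40, adjusted p = 0.00722). Among extracellular antagonists and modulators, with 1 higher and 2 lower of 7, matrix Gla protein Mgp was higher (1.30, adjusted p = 0.000228), by 0.64 in capillary ECs alone (adjusted p = 0.00712). Htra1, a secreted protease, was lower with age (−0.59, adjusted p = 0.00135) and past the threshold in all 4 comparisons, at 56.7 and 97.7 CPM in the young and 30.5 and 64.8 CPM in the old libraries. Of the helix-loop-helix partners of Id proteins, Tcf3 (E2A) was lower (−0.40, adjusted p = 0.00497) and 2 of 3 were not called. Target genes of TGF-beta gave 0 higher and 2 lower of 8, the collagens Col4a1 and Col4a2.

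**Figure D5:**
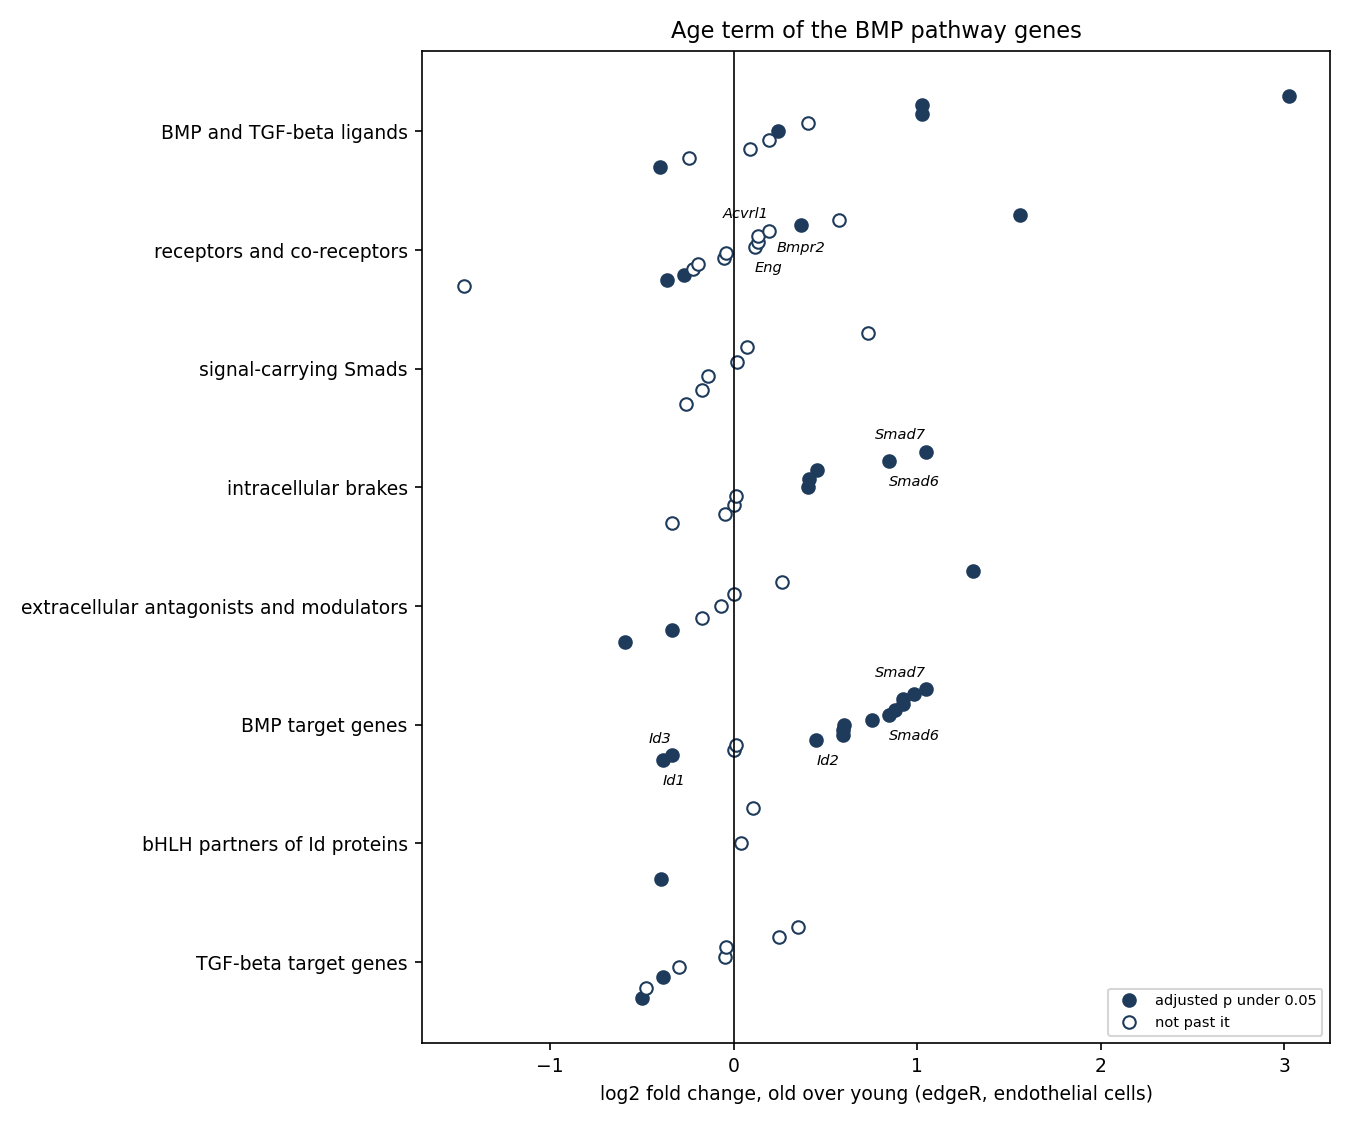
Log2 fold change of old over young in ECs for the tested genes of 8 pathway lists, from edgeR's age term, with filled points past an adjusted p of 0.05 and the 8 members named. Target genes and intracellular inhibitors lie mostly to the right of 0, with Id1 and Id3 to the left.

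Genes most like Id1 were sought by Pearson correlation of log2(CPM + 1) over the 12 sums of 3 segments in 4 libraries, among 3411 genes with at least 50 CPM. The 5 highest were Ilrun (r = 0.93), Maco1 (r = 0.92), Rnf10 (r = 0.92), Tecr (r = 0.92) and Atraid (r = 0.91). Among the members, r was 0.79 for Acvrl1, 0.73 for Eng, 0.60 for Smad7, 0.59 for Id2, 0.41 for Smad6, 0.28 for Bmpr2 and 0.19 for Id3. The 12 points share 4 libraries and their depths, and the values are descriptions only.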

How the data were processed

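The authors deposited raw UMI counts, 1 table per library, from Cell Ranger 6.0.2 and mm10 (GRCm38), neither pooled nor normalized. Gene IDs were placed with GENCODE vM21 (99.3% found). Cells needed 500 genes and 1000 UMIs or more, with mitochondrial RNA of no more than 10%. The filter of the study kept fewer cells, and the classes here are rebuilt ones. A cell was classed where its scaled marker score was at least 0.25, at least 3 markers had a UMI and the second class scored at most 0.5 of the first, and 2533 cells stayed unclassed. Vessel segments needed 2 markers and a second score of at most 0.67 of the first. These scoring rules were set after the data were seen. No doublet caller was run. Cells whose second class scored over 0.5 of the first were left unclassed, so that classed ECs can still carry some markers of another class, and 132 ECs lay near the cut.

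UMIs were summed per library and class, and ratios were computed on CPM after adding 0.5 UMIs and expressed as log2. Intervals were exact Poisson for levels, conditional binomial for ratios and Clopper-Pearson for shares, at 95%. Age was tested with edgeR 4.0.16 (quasi-likelihood, TMM, age and genotype label, Benjamini-Hochberg over all genes), tested on simulated data first, and with DESeq2 1.42.0 as an alternative. With 1 library per group, no p-value was taken from cells or from a single pair of libraries. The members, gene lists and tests were chosen with earlier results of these data known. Named genes were the 8 members, Klf4, listed genes of at least 10 CPM past 0.5 in 2 or more of the 4 comparisons or highest of their list, and the 5 genes most like Id1.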

Additional observations from a re-analysis of the deposited data

Results flagged for a closer look

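Some members differed between libraries in opposite directions in the 2 pairs, with both counting intervals away from 0. Id3 was lower in the library labelled EC-K4KO in the young pair (log2 ratio −0.30) and higher in the old pair (0.06), a difference of 0.37. Smad7 did the same at −0.39 and 0.11, a difference of 0.50. Bmpr2 was at −0.08 and 0.06, a difference of 0.14, and with age at −0.08 in WT Cre and 0.05 in the libraries labelled EC-K4KO, which is the same difference of 0.14. Eng with age was at −0.13 in WT Cre and 0.07 in the libraries labelled EC-K4KO, a difference of 0.20. Within segments the signs of Id3 and Smad7 were opposite in capillary ECs and not in arterial or venous ECs, where the young and old pairs gave −0.07 and −0.04 (arterial) and −0.52 and −0.15 (venous) for Id3, and 0.07 and 0.13 (arterial) and −0.89 and −0.16 (venous) for Smad7. Bmpr2 was of 1 sign in both pairs in venous ECs (−0.35 and −0.05), and with age in all 3 segments. Eng with age was of opposite sign in capillary ECs (−0.14 and 0.12) and not in arterial (−0.03 and −0.09) or venous ECs (0.23 and 0.51). None of these differences was tested, since 4 libraries leave no degree of freedom for an interaction. With TMM scaling the age ratios of Bmpr2 and Eng in WT Cre were above 0, so that their opposite signs did not hold there.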

How the results depend on the processing

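No paired analysis was possible because the groups share a single replicate number and each holds 1 library, and leaving out a library leaves no residual degree of freedom. Of the 32 log2 ratios of members, 25 kept their sign in all 9 alternatives. Of the 7 that changed sign, none was past 0.5: Acvrl1, Bmpr2 and Eng with age in WT Cre, Bmpr2 with age in the libraries labelled EC-K4KO, and Id1, Id2 and Smad6 in the old pair. With a threshold of 0.3 in place of 0.5, the young pair had 3 members lower (Id1, Id3 and Smad7, 6.64% of all 8443 genes), the old pair 1 higher (Eng, 6.10%), and age in the libraries labelled EC-K4KO 1 lower (Id3, 28.0%) and 3 in place of 2 higher (Id2 added, 9.30%). With age in WT Cre, 1 member in place of 2 was higher (Smad7 without Smad6) in capillary ECs (5.34% of all genes) and with the mean of per-cell CPM (5.31%), and 1 in place of 2 was lower (Id1 without Id3) with DESeq2 size factors (3.83%). Under the EC-K4KO label, capillary ECs gave 3 in place of 2 higher with age (Id2 added, 5.26%). Genes called with age numbered 2990 in the edgeR fit, 1058 with DESeq2 and 1575 in capillary ECs, and 3897 with no filter on low counts. The call of Id1 was lost with DESeq2 size factors in edgeR (adjusted p = 0.0661), DESeq2 (0.663) and capillary ECs (0.119), and that of Id3 also with the stricter cell filter (0.0527). The cause was not tested. The share of young WT Cre ECs with an Id1 UMI was 96.4% without thinning and 87.1% at 2000 UMIs. Of the pathway genes, 47 had at least 10 CPM and 34 at least 50 CPM. Past 0.5 in the old pair were 5 of the 47 and 3 of the 34. With age in the libraries labelled EC-K4KO these were 17 of the 47 and 10 of the 34. Of all genes with at least 10 CPM, 1.98% were higher and 1.88% lower in the old pair. In that age comparison 5.38% were higher and 9.82% lower. These shares were not computed at 50 CPM. Venous values rest on as few as 45 cells.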
